A study of Rattus norvegicus with 2 samples.

Results

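The glycine receptor subunit genes Glra1, Glra2, Glra3 and Glrb were examined in cultured rat neural stem cells after exposure to sevoflurane, an inhaled general anaesthetic. Members were all non-control probes present on both arrays whose RefSeq messenger RNA accession belongs to 1 of these genes, which gave 4 probes, 1 per gene, of 24684 non-control probes. The files give the probe targets as NM_012568.2 (Glra2), NM_013133.1 (Glra1), NM_053724.3 (Glra3) and NM_053296.1 (Glrb), and each probe was spotted once per array. The sevoflurane group received 2.4% of the agent for 6 h and the control group 0% for 6 h. Per the labels' protocols, both then spent 24 h in a 5% CO2 incubator, although other labels name only the 6 h time point. The cells of both groups came from the hippocampus of Sprague-Dawley rats at postnatal day 3, grew without serum in medium with bFGF and were used at passage 3. Cy3-labelled RNA was hybridised to 1-colour arrays, 1 array for each group, so that 2 arrays were compared and no difference has a replicate check or a p-value. The sources used here do not say whether an array holds 1 culture or a pool.

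Glycine receptors are pentameric chloride channels opened by glycine and blocked by strychnine. Their alpha subunits, encoded by Glra1 to Glra3 here, carry most of the glycine binding site and can form channels alone, while the beta subunit, encoded by Glrb, joins them and ties the receptor to the scaffold protein gephyrin at synapses. The alpha2 subunit is known as the form of the developing nervous system, alpha1 as the main adult form of spinal cord and brainstem, and alpha3 as a form of the dorsal horn, retina and hippocampus. In young neurons with a high chloride content the channel can depolarise the cell. Volatile anaesthetics are known to enhance glycine receptor currents.

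The values are processed signals, the background-corrected brightness of a spot in arbitrary intensity units, and their errors are those of the scanner software's error model for 1 spot. Levels are log2 signals relative to the 75th percentile of all probes of the same array, which was 363 for sevoflurane and 692 for control. Differences are sevoflurane minus control on that log2 scale, and at least 2-fold (1 log2 unit) was the size rule. A gene counted as measured when its probe was well above background on both arrays, which held for 10028 of 13888 genes with a matched RefSeq accession. Probes well above background only on the sevoflurane array numbered 4491, against 396 only on the control array. Each array had its own scan day, and this cannot be told apart from the group. All 11 stem cell markers with a probe were measured on both arrays. The stem cell filament gene Nes had signals of 777 (sevoflurane) and 616 (control), and the stem cell factor gene Sox2 1993 (sevoflurane) and 6835 (control).

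Of the 4 receptor genes, 3 were measured on both arrays: Glra2, Glra1 and Glrb. Under the scaling used, Glra2 was much lower in the sevoflurane sample, Glra1 was higher by more than 2-fold, and Glrb differed by less than 2-fold. Glra1 fell below 2-fold under other scalings, as described below. Glra3 was not well above background on either array. The count of 1 higher and 1 lower among 3 measured members stands beside 27.9% of all measured genes that were at least 2-fold higher and 11.5% that were at least 2-fold lower. None of the 8 member spots was flagged as non-uniform or as an outlier, and none was saturated. Because the probes differ in sequence, the signal of 1 subunit says nothing about its abundance relative to another subunit, and no order of levels among the subunits is given.

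**Figure D1:**
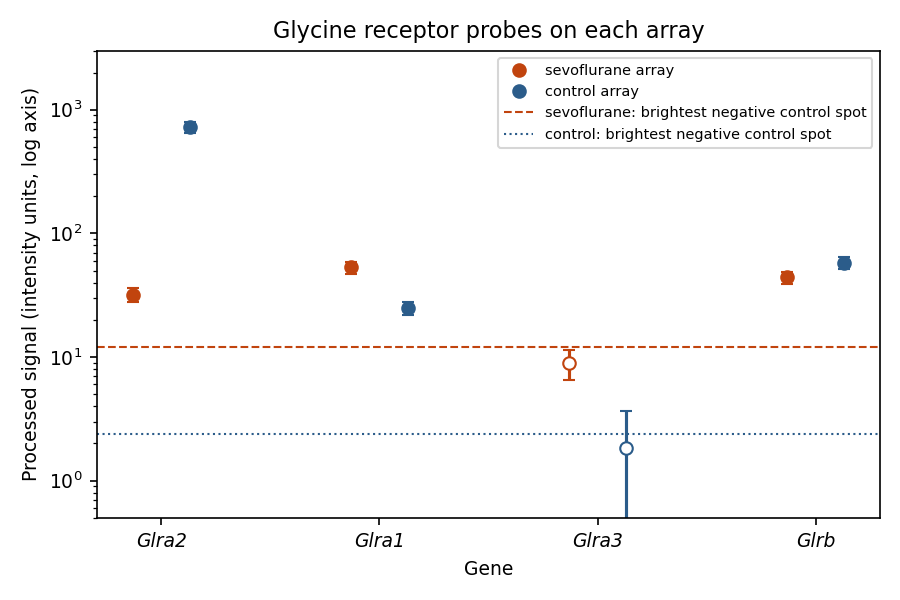
Processed signal (log axis) of the probe of each glycine receptor gene on the sevoflurane and the control array, with the software's error of 1 spot. Open points were not well above background, and lines mark the brightest negative control spot of each array. Glra2 lies at 31.9 on the sevoflurane array and at 718 on the control array, Glrb at 44.1 (sevoflurane) and 57.8 (control), and the lower error bar of Glra3 on the control array runs off the axis.

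Glra2, the gene of the developmental alpha2 subunit, had a processed signal of 31.9 ± 4.0 on the sevoflurane array and of 718 ± 71.9 on the control array (error of 1 spot). The sevoflurane value was the lower, and the gap exceeded these errors, which cover 1 spot and leave out the spread between cultures. The level was -3.51 in the sevoflurane sample and 0.05 in the control sample, a difference of -3.56 ± 0.23 log2 units, or 11.8-fold lower (22.5-fold before scaling). Among the 10028 measured genes, 21 including Glra2 had a difference this low or lower. The measured genes were divided by mean level into 10 equal groups, from dim (group 1) to bright (group 10). In the level group of Glra2 (group 4), where the median difference was 0.44 and 12.2% of 1002 genes were at least 2-fold lower, 4 genes including Glra2 were this low. Before background correction the spot had a median pixel signal of 83 (sevoflurane) and 784 (control). Its local background was 17 (sevoflurane) and 23 (control), beside a median of 18 (sevoflurane) and 26 (control) over all spots. Probes of like signal with at least 3 spots had spot-to-spot SDs within an array, which also leave out the spread between cultures, with a median of 0.15 (log2, sevoflurane array, 2637 probes) and 0.05 (log2, control array, 802 probes). The difference was negative in every scaling tried, and it was -2.31 with normexp, a setting that changed the signal column, the background correction and the offset together. The deposited value table of the authors listed Glra2 at 4.64 (sevoflurane) and 9.02 (control), a difference of -4.38.

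Glra1, the gene of the adult alpha1 subunit, had a processed signal of 53.2 ± 5.88 on the sevoflurane array and of 24.9 ± 3.13 on the control array. The sevoflurane value was the higher, and both spots were dim, at a level of -2.77 in the sevoflurane sample and -4.80 in the control sample. The difference was 2.03 ± 0.24 log2 units, or 4.07-fold higher (2.14-fold before scaling). The median pixel signals before background correction were 108 (sevoflurane) and 72 (control), over a local background of 20 (sevoflurane) and 27 (control). The difference has to be read against genes of like level, since dim genes as a whole were higher on the sevoflurane array. In the level group of Glra1 (group 2) the median difference was 1.29, 58.5% of 1003 genes were at least 2-fold higher, and 273 had a difference as high as that of Glra1. Glra1 thus lay 0.74 log2 units above the median of its level group, and its difference was inside the interval of 0.36 to 2.09 between the quartiles. It was below the 2-fold rule, at 0.76 to 0.94, after quantile normalization, after median scaling, after subtraction of the loess curve of difference on level (the intensity-dependent correction) and in the authors' deposited table. It was at 1.22 after normexp.

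Glrb, the gene of the beta subunit that binds gephyrin, had a processed signal of 44.1 ± 4.99 on the sevoflurane array and of 57.8 ± 6.07 on the control array. The sevoflurane signal was the lower before scaling, and the sevoflurane level was the higher after it, at -3.04 against -3.58 in the control sample. The spot had median pixel signals of 97.5 (sevoflurane) and 103 (control) before background correction. The difference was 0.54 ± 0.22 log2 units, or 1.45-fold higher under this scaling, against a median of 0.61 over the 1003 genes of its level group (group 3). In that group, 521 genes had a difference as high and 483 one as low, so Glrb lay near the middle. Its sign depended on the scaling: the difference was -0.56 after quantile normalization, -0.55 after median scaling, -0.45 with the loess curve subtracted and -0.55 in the authors' deposited table, but 0.64 after normexp. No direction can be given for Glrb.

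Glra3, the gene of the alpha3 subunit, had a processed signal of 8.92 ± 2.39 on the sevoflurane array and of 1.83 ± 1.82 on the control array. Neither spot was well above background, though the software called the sevoflurane spot positive and significant and the control spot not. On the sevoflurane array the value lay between the median (2.33) and the highest value (12.1) of 153 negative control spots, which carry a sequence without a target. On that array 1 of the negative control spots was itself well above background. On the control array it lay between the median (1.79) and the highest value (2.38) of the same 153 spots. The deposited value table of the authors listed Glra3 at 2.74 (sevoflurane) and 2.73 (control), and 2.73 was the lowest value of the control column. No fold is given for it.

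**Figure D2:**
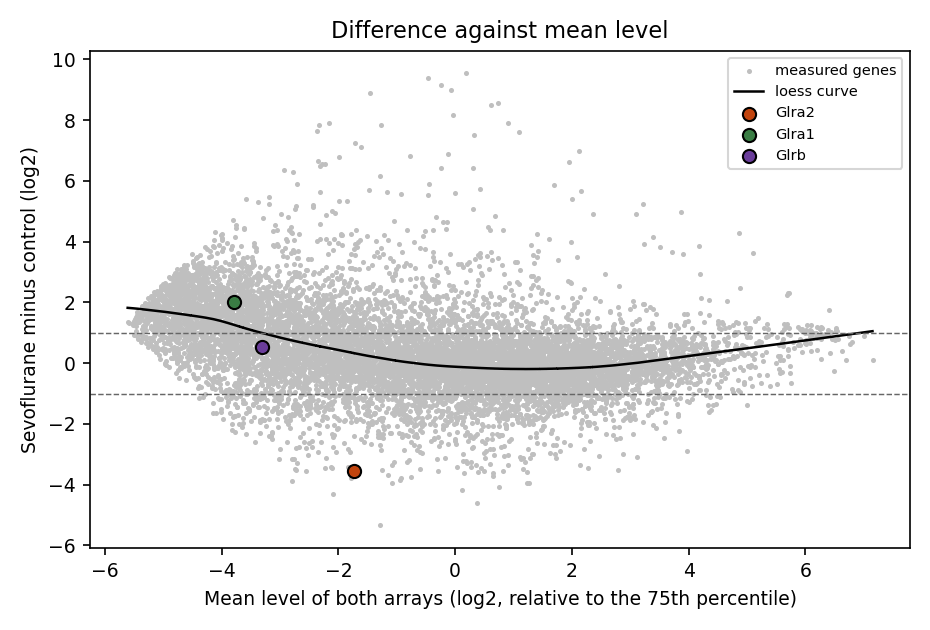
Difference (sevoflurane minus control, log2) against mean level of both arrays for all 10028 measured genes (grey), with a loess curve through the measured probes and dashed lines at 2-fold. Glra1 (2.03) and Glrb (0.54) lie on either side of the curve among dim genes, where the curve is above 0, and Glra2 (-3.56) lies near the lower edge of the cloud.

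The subunits were also set against each other by their differences, which takes out any constant scaling of an array. Relative to Glrb, Glra2 was lower by a difference of -4.10 ± 0.32 log2 units. That contrast was -3.83 after quantile normalization, -3.44 with the loess curve subtracted and -2.95 after normexp. Relative to Glrb, Glra1 was higher by 1.49 ± 0.33 log2 units, and this contrast was 1.22 with the loess curve subtracted and 0.58 after normexp. The widest of the 3 contrasts was that of Glra2 with Glra1, at -5.59 ± 0.33, and at -3.54 after normexp.

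**Figure D3:**
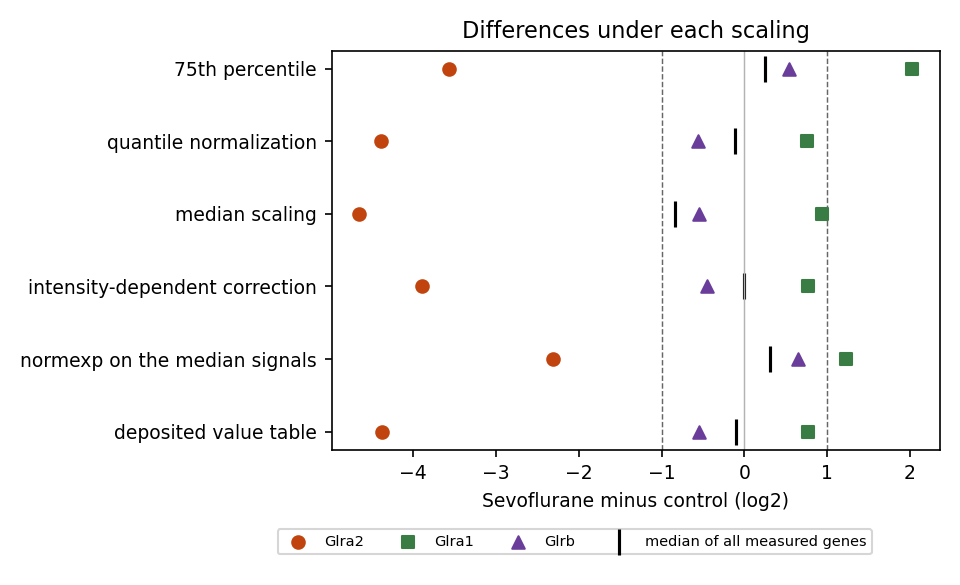
Difference (sevoflurane minus control, log2) of Glra2, Glra1 and Glrb under each scaling or background correction, with the median of all measured genes as a bar and dashed lines at 2-fold. Glra2 stays between -4.65 and -2.31, Glra1 crosses the 2-fold line between settings, and Glrb changes sign.

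The genes whose difference was nearest to that of a measured subunit within its level group were named as a description, from 1 difference over 2 arrays. For Glra2 these were Nxph1, a neurexophilin gene, at -3.57 (signals 30.5 in sevoflurane and 690 in control), the synaptic vesicle gene Syn2 at -3.44 (25.4 in sevoflurane and 527 in control) and the calcium-dependent kinase gene Camk4 at -3.44 (23.5 in sevoflurane and 485 in control). For Glra1 they were Klf14 at 2.02, Slmap at 2.03 and Tapbp at 2.03. For Glrb they were Fech, Pdk3 and Mrm2, each at 0.53. Since these genes were picked for a like level and a like difference, their likeness supports nothing.

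Some markers of neurons, the cells in which glycine receptors work at synapses, were lower, as Glra2 was. Of 12 measured neuron markers 6 were at least 2-fold lower and 0 higher in the sevoflurane sample, beside 11.5% of all measured genes lower and 27.9% higher. With the loess curve subtracted 9 were lower and 0 higher, beside 15.5% lower and 15.0% higher over all measured genes. Their median difference was -0.91, against 0.25 over all measured genes. Their summed signal, in multiples of the 75th percentile of each array, was 61.1 in the sevoflurane sample and 140 in the control sample. The tau gene Mapt differed by -3.11, the glutamate transporter gene Slc17a6 by -3.11 and the young neuron tubulin gene Tubb3 by -0.76. Map2 was at 0.34 (0.36 with the loess curve subtracted, -0.74 after median scaling), and its other measured probe was at 1.07. Rbfox3 was at 0.09 (-1.46 after quantile normalization, 0.66 after normexp). Gad1 stands in this list and also among the transport genes described further on. Syt1 was well above background only on the control array, and Slc17a7 on neither. Microglial markers were lower in 5 of 7 cases, with summed signals of 2.49 (sevoflurane) and 15.3 (control), and all 6 red cell markers were higher, with 141 (sevoflurane) and 25.6 (control). Bright probes weigh most in such a sum, and Hbb, at levels of 6.85 (sevoflurane) and 4.55 (control), made up most of the red cell sums. Of the stem cell markers 3 of 11 were higher and 2 lower, and the higher count was near the 27.9% over all measured genes. The part of these shifts in the Glra2 difference was not tested. In RNA of a whole culture, fewer cells of a type and less RNA per cell cannot be told apart.

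Partners of the receptor were taken from 3 lists with 38 genes, of which 32 had a probe and 28 were measured. Of these, 6 were at least 2-fold higher and 10 lower, beside 27.9% higher and 11.5% lower over all measured genes. With the loess curve subtracted 7 were higher and 8 lower, beside 15.0% higher and 15.5% lower over all measured genes. The median difference of the 28 partner genes was -0.45, against 0.25 over all measured genes, and it was negative in every scaling tried. The median over all measured genes was itself negative after quantile normalization (-0.11, against -0.51 for the partners) and after median scaling (-0.84, against -1.54). It was also negative in the deposited table (-0.10, against -0.51). The medians of the 3 lists were -0.62 (scaffold), -1.27 (transport) and 0.82 (synthesis and cleavage), and after median scaling they were -1.71 (scaffold), -2.35 (transport) and -0.27 (synthesis and cleavage). No test of a difference between the lists is possible with 1 array per group.

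Among scaffold and trafficking genes, 3 of 10 measured genes were at least 2-fold lower and 0 higher, with a median of -0.62. Over all measured genes 11.5% were lower and 27.9% higher. With the loess curve subtracted 2 of the 10 were lower, beside 15.5% over all measured genes. Gphn, the gene of gephyrin, had signals of 832 (sevoflurane) and 3268 (control) and differed by -1.04. It crossed the 2-fold line between settings, at -0.86 after the intensity-dependent correction, and was negative in every scaling. Vps26b, of the retromer complex, was at -1.03 (-0.87 after the correction). Pacsin1, the gene of an endocytic protein that binds the beta subunit, was well above background only on the sevoflurane array. It had signals of 16.1 (sevoflurane) and 7.01 (control), at least 4.24-fold higher after scaling. The sevoflurane signal of Pacsin1 was near the brightest negative control spot of that array (12.1). Its bound (2.09 log2 units) has to be read against the dimmest measured genes (group 1), whose median difference was 1.68. Gphn was bright on both arrays and lay in level group 8, where the median difference was -0.15.

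Among genes for the transport and synthesis of glycine, GABA and chloride gradients, 5 of 9 measured genes were at least 2-fold lower and 3 higher. Over all measured genes 11.5% were lower and 27.9% higher, so the higher count was near that share under this scaling. With the loess curve subtracted the counts were again 5 lower and 3 higher, beside 15.5% lower and 15.0% higher over all measured genes. Slc32a1, which loads glycine and GABA into vesicles, had signals of 239 (sevoflurane) and 3720 (control) and differed by -3.03. Gad1 and Gad2, which encode the enzymes that make GABA, differed by -2.99 and -1.27 (-2.76 and -0.52 after normexp). All 3 of these genes were thus lower, as Glra2 was, but so was the glutamate transporter gene Slc17a6 (-3.11). The lower values were therefore not particular to genes of inhibitory transmission, and GABA-A receptor subunits went both ways, as described below. Slc6a5, the glycine transporter gene of glycinergic nerve cells, was well above background only on the control array, with signals of 3.70 (sevoflurane) and 17.2 (control), at least 1.31-fold lower in sevoflurane. Slc6a9, the glycine transporter gene known from glia, went the other way, with signals of 1519 (sevoflurane) and 893 (control) and a difference of 1.70 (0.61 after median scaling). Slc38a5, an amino acid transporter gene that also carries glycine, differed by 2.95 (1.67 after the correction). The chloride importer gene Slc12a2 had signals of 2671 (sevoflurane) and 2320 (control) and differed by 1.13. It was within 2-fold after median scaling, at 0.05. No probe was matched to the chloride exporter gene Slc12a5.

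Among genes of glycine synthesis, use and cleavage, 3 of 9 measured genes were at least 2-fold higher and 2 lower, with a median of 0.82 that was -0.27 after median scaling. Over all measured genes 27.9% were higher and 11.5% lower, and nothing is read from counts this small. Glyat, which joins glycine to acyl groups, had signals of 708 (sevoflurane) and 285 (control) and differed by 2.25. Phgdh, the entry enzyme gene of serine synthesis, was at 1.16, and Gcsh, of the glycine cleavage system, at 1.08, but they were at 0.07 and -0.01 after median scaling. Lower values were found for Gatm, which uses glycine for creatine synthesis, at -1.62 (-0.95 after normexp), and for Amt, of the glycine cleavage system, at -1.03 (-0.98 after the correction). Gnmt, a glycine methyltransferase gene, was well above background only on the sevoflurane array. It had signals of 14.4 (sevoflurane) and 1.93 (control), at least 3.80-fold higher after scaling. The sevoflurane signal of Gnmt was also near the brightest negative control spot (12.1). Its bound (1.93 log2 units) stands beside the median difference of 1.68 in level group 1.

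**Figure D4:**
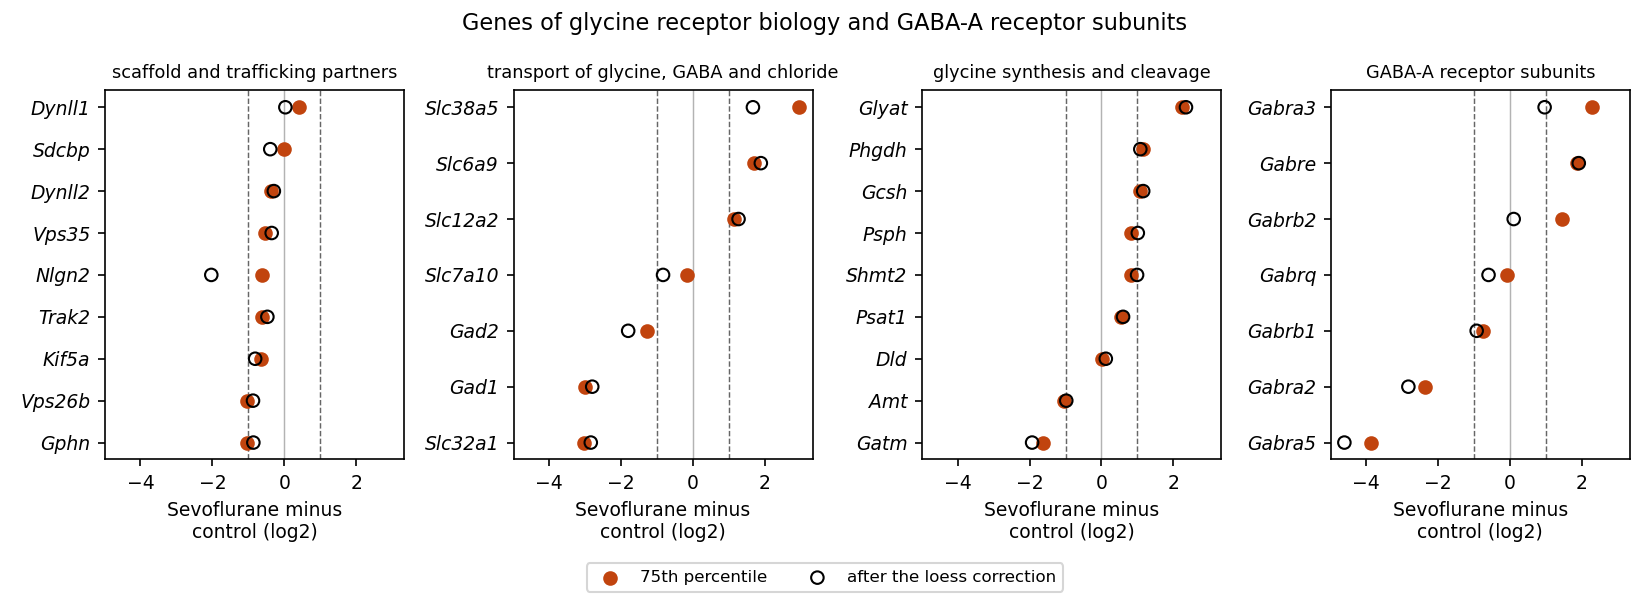
Differences (sevoflurane minus control, log2) of measured genes from the 3 partner lists and of GABA-A receptor subunits, without those not reported here, scaled to the 75th percentile (filled) and after the loess correction (open), with dashed lines at 2-fold. Slc32a1 (-3.03) and Gad1 (-2.99) are lowest among the transport genes plotted, and Gabra5 (-3.87) among the GABA-A subunits plotted.

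GABA-A receptors, the other family of inhibitory chloride channels built like the glycine receptor, were compared because they also have subunits of different developmental timing. Of 18 subunit genes with a probe, 9 were measured, 4 of them at least 2-fold higher and 3 lower, with a range of -3.87 to 2.29. Their median was -0.09, against 0.25 over all measured genes, and 0.27 against 0.31 after normexp. The median was -0.74 against -0.11 after quantile normalization and -1.18 against -0.84 after median scaling. With the loess curve subtracted it was -0.60. Over all measured genes 27.9% were higher and 11.5% lower, and the count of higher subunits was 2 of 9 after quantile normalization, median scaling and the intensity-dependent correction and also in the authors' deposited table. Gabra5 had signals of 13.7 (sevoflurane) and 381 (control) and differed by -3.87 (-1.71 after normexp), and Gabra2 had 37.8 (sevoflurane) and 373 (control) and differed by -2.37. The difference of Glra2 (-3.56) lay between those of Gabra5 and Gabra2 under this scaling but was below both after normexp (-2.31, against -1.71 for Gabra5 and -1.27 for Gabra2). The sevoflurane signal of Gabra5 was just above the brightest negative control spot of that array (12.1), and no test of a difference between the families is possible with 1 array per group. Gabre had signals of 4758 (sevoflurane) and 2508 (control) and differed by 1.85 (0.77 after median scaling), and Gabra3 was at 2.29 and Gabrb2 at 1.44. The last 2, like Glra1, were dim genes in level group 2, and were at 0.96 and 0.10 with the loess curve subtracted.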

How the data were processed

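The authors extracted each 1-colour array with Agilent Feature Extraction 11.0.1.1, per the submitters' processing notes. Per the file headers, the deposited signals are linear spot intensity, background-corrected within each array and not scaled between arrays. The deposited value table was read as log2 values of the same arrays from its range, and its scaling, centring and program are not given in the sources used here. Its differences for Glra1 (0.76), Glra2 (-4.38) and Glrb (-0.55) were almost those after quantile normalization (0.76, -4.38 and -0.56). The deposited table and quantile normalization are therefore not separate checks of the members. RefSeq accessions without versions were matched to symbols of the RefSeq gene table (GRCr8 assembly), naming 14274 of 15323 RefSeq probes. The array design refers to another build (rn4), so no coordinates are printed.

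Control spots and spots with a non-uniformity or outlier flag were left out. Processed signals were taken to log2, averaged per probe and scaled by subtracting the 75th percentile of each array (numpy 2.4.6, pandas 2.3.3). A probe was measured when most of its spots were well above background on both arrays, and the measured probe of highest mean level stood for its gene. For a gene well above background on 1 array only, the fold is a lower bound: its dim level was taken as its own signal or, where higher, the lowest signal well above background on that array. Alternatives were quantile normalization, median scaling, a loess correction of difference on mean level (span 0.3), normexp with an offset of 50 (limma 3.58.1, R 4.3.3), the deposited table, flagged spots kept, no filter on dim probes and the mean of all probes of a gene. The scanner files have no mean spot signal, so normexp used the median signals, a choice made after seeing the data. The scaling code was checked on simulated data with a constant factor between 2 copies of the control array. Such a simulation leaves out the shift of dim genes between the real arrays and so cannot judge the scaling there. With 1 array per group the number of arrays limits the precision.

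The members and lists were chosen with earlier results of these data known. The text names all members, list genes by size (up to 12 over the partner lists, 3 highest and 3 lowest GABA-A subunits), a fixed set of partners and, for each measured member, the 3 genes of nearest difference. Vps26b, Phgdh, Gcsh, Amt and Gabrb2 fall outside that rule and were named after their values were seen. Some list genes that this rule selects are counted in the lists but not reported here by name.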

Additional observations from a re-analysis of the deposited data

How the results depend on the processing

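Glra2 was at least 2-fold lower in every setting run, at -4.38 after quantile normalization, -4.65 after median scaling, -3.89 after the intensity-dependent correction, -2.31 after normexp and -4.38 in the deposited table. Glra1 passed the 2-fold rule after normexp (1.22) but not after quantile normalization (0.76), median scaling (0.94), the intensity-dependent correction (0.77) or in the deposited table (0.76). Glrb was at -0.56 after quantile normalization, -0.55 after median scaling, -0.45 with the loess curve subtracted and -0.55 in the deposited table. Keeping flagged spots, or all dim probes, moved no member by more than its error, but neither setting could test the members. None of their spots was flagged, so keeping flagged spots changed only the scaling. Each measured member has 1 probe that had already passed the filter on dim probes. Genes of the partner lists numbered 2 higher and 18 lower of 28 after median scaling, beside 1040 higher and 4379 lower of all 10028 measured genes. After normexp they numbered 4 higher and 6 lower, beside 2274 higher and 861 lower of all measured genes. Of the 9 measured GABA-A subunits, 2 were higher after quantile normalization, median scaling and the correction and in the deposited table, and 5 were lower after median scaling. With no filter on dim probes 11 were higher, out of all 18 subunit genes with a probe. Over all 10028 measured genes, 2801 were at least 2-fold higher and 1154 lower, against 1353 and 2002 after quantile normalization, 1040 and 4379 after median scaling, 1359 and 1917 in the deposited table and 1500 higher after the correction. With no filter 6362 were higher, a count that also takes in genes not measured on both arrays. The median of all measured genes moved with them: 0.25 under the scaling used, -0.11 after quantile normalization, -0.84 after median scaling and 0.31 after normexp. The cause was not tested. Dim signals limit Glra1, Glrb, Glra3 and, on the sevoflurane array, Glra2. No paired analysis was possible because each group has 1 array.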
